A study of Mus musculus with 8 samples.

Results

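Transcripts of 8 chemokine receptors that steer T cells into inflamed, barrier and other non-lymphoid tissues, Ccr2, Ccr4, Ccr6, Ccr8, Ccr10, Cxcr3, Cxcr4 and Cxcr6, were followed in mouse regulatory T (Treg) cells with and without the Ca2+ sensors STIM1 and STIM2. They were taken by symbol from a table of 52459 genes, and all 8 were found. The study compared WT cells with cells labelled DKO, in which Stim1 and Stim2 are both floxed (fl/fl) and Foxp3-YFPcre is to delete them, either unstimulated or after 16 h with plate-bound antibodies to CD3 and CD28 at 1 µg/ml, with 2 libraries in each of the 4 groups. All cells were CD4+CD25hi on the C57BL/6 background, sorted from spleen and lymph nodes of pooled heterozygous females, whose age is not given in the sources used here. By the methods, both genotypes came from such females, in which Cre, driven by the X-linked Foxp3 promoter, is made in only some of the Treg cells, so that WT denotes YFPcre- and DKO denotes YFPcre+ cells. WT cells would then carry the same floxed alleles without making Cre, although their GEO label reads WT only.

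Chemokine receptors are 7-transmembrane receptors that couple to inhibitory G proteins, and a cell follows a ligand gradient towards the tissue that makes the ligand. On T cells, CCR4, CCR8 and CCR10 are linked with skin and other barrier sites, CCR6 with mucosal and Th17-type inflammation, CCR2 with sites of monocyte recruitment, CXCR3 with Th1-type inflammation, CXCR6 with liver, lung and other peripheral tissues, and CXCR4 with retention in bone marrow. Naive T cells instead rely on CCR7 to stay in lymphoid organs. STIM1 and STIM2 open the ORAI channels after the T cell receptor has emptied the Ca2+ store, a process called store-operated Ca2+ entry (SOCE), which activates the transcription factor NFAT.

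Each deposited value is a gene count scaled by a size factor of its library, referred to as a normalized count. Libraries held 11851853 to 16306540 reads on genes, and 1 read was worth 0.759 to 1.48 normalized counts, so that 3 reads, taken as the limit of detection, equalled 2.28 to 4.43. Neither deleted gene was lower in the libraries labelled DKO by more than the spread of the libraries. Stim1 had 1139 and 1377 normalized counts in unstimulated WT and 1538 and 1868 in DKO libraries, and 645 and 673 against 552 and 642 after stimulation. Stim2 had 906 and 908 against 904 and 744 unstimulated, and 665 and 782 against 620.2 and 696 after stimulation. Counts over a whole gene do not separate a removed exon from the rest of the transcript, and every direction below is therefore that of the libraries labelled DKO. The study itself reports that YFPcre+ Treg cells of heterozygous females lacked SOCE, compared with their YFPcre- cells. It also reports loss of Stim1 and Stim2 expression by RT-PCR, in Treg cells of males. All 9 Treg markers examined, among them Foxp3, Il2ra and Ctla4, were detected in every library. Their sum was 94452 and 101559 normalized counts in unstimulated WT and 46584 and 54448 in DKO libraries. Of the 9, 3 were called lower there (Ctla4, Ikzf2 and Tnfrsf18), beside 3.35% of all genes. After stimulation the sums were 101501 and 120658 against 74707 and 93943, with 0 called. Foxp3 was lower in both DKO libraries than in either WT library in both states, without a call. It had 10000.5 and 8159 against 4947 and 4258 unstimulated (limma adjusted p = 0.0591). The stimulated values were 8525 and 11918 against 4474 and 7253 (limma adjusted p = 0.177). Macrophage and monocyte markers (12 genes, such as Csf1r and C1qb) summed to 349 and 352 normalized counts in unstimulated WT libraries. They summed to 10195 in DKO replicate 1 and to 1537 in DKO replicate 2, with 8 of 11 tested called higher, beside 1.38% of all genes. After stimulation their sums were between 139.7 and 359. B cell markers (10 genes) summed to 352 and 383 in unstimulated WT and to 3805 and 924 in DKO libraries, and to between 234 and 1646 after stimulation. In unstimulated DKO libraries 2 of the 10 were called higher, beside 1.38% of all genes. Other markers summed in unstimulated WT and DKO libraries, in this order, to 127 and 235 against 495 and 1093 for neutrophils, 275 and 328 against 306 and 925 for CD8 T and NK cells, 253 and 284 against 249.7 and 702 for dendritic cells, and 32.4 and 68.0 against 85.5 and 217 for erythroid cells, with 0 called. In stimulated WT and DKO libraries the sums were 274 and 564 against 152 and 839 for neutrophils, and 227 and 474 against 396 and 1097 for CD8 T and NK cells. They were 231 and 389 against 268 and 441 for dendritic cells, and 119 and 181 against 84.2 and 85.3 for erythroid cells. No marker list was at 0 in any group, but 2 of the 12 macrophage markers, C1qa and C1qc, were at 0 in both unstimulated WT libraries. The part of these markers in the receptor values was not tested. By the file names in the labels, all unstimulated libraries came from one sequencing lane and all stimulated libraries from another, so both genotypes lie within each lane, whereas stimulation and lane cannot be told apart.

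The genes lie on GRCm38 (mm10), the build listed with the samples, at chr9:124101918-124109140 for Ccr2, chr9:114490316-114505476 for Ccr4, chr9:120092133-120094906 for Ccr8, chr9:123806477-123811754 for Cxcr6, chr17:8236041-8258519 for Ccr6, chr11:101172998-101175443 for Ccr10, chrX:101731535-101734147 for Cxcr3 and chr1:128588199-128592299 for Cxcr4. Cxcr6 lies inside the span of Fyco1 and Ccr10 inside that of Cntnap1, both on the opposite strand and with 0 shared exon bases in the annotation used. The sequences of the 4 receptors that were called lower in unstimulated DKO libraries are shown for the 250 bases before a RefSeq (GRCm38.p6) transcription start, 5′ to 3′ on the strand of the gene. Capitals mark the NFAT core GGAAA and the AP-1 motif TGANTCA, each searched on both strands. The windows of Ccr4 and Ccr2 lie within the gene spans given above, so they belong to a start inside the span and not to its outermost end.
Ccr4 promoter, chr9:114496545-114496794, minus strand: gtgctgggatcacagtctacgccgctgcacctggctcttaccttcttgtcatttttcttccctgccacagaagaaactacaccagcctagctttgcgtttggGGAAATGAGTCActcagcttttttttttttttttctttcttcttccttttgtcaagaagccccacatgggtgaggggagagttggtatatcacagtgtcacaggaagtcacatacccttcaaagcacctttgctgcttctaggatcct
Ccr8 promoter, chr9:120091883-120092132, plus strand: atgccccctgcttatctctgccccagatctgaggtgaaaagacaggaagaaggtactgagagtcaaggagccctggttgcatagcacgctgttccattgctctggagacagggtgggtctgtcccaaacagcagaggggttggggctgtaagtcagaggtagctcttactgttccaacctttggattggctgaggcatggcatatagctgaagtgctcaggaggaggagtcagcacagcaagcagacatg
Ccr2 promoter, chr9:124101933-124102182, plus strand: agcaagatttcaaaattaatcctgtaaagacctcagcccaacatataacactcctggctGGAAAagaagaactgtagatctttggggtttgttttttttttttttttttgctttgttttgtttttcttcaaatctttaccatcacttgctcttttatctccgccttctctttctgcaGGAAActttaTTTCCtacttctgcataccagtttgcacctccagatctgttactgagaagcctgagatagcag
Ccr6 promoter, chr17:8235793-8236042, plus strand: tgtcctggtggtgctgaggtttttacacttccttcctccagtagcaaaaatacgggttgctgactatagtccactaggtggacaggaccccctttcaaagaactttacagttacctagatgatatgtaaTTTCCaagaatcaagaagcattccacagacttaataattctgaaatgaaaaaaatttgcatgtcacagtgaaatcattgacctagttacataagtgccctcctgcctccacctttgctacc
In Ccr4, GGAAA starts 148 bases before the transcription start and runs without a gap into TGAGTCA, which starts 143 bases before it. Of 32851 promoter windows of this length, 55.6% held GGAAA, 6.75% held TGANTCA, and 0.499% held both with starts at most 15 bases apart, a distance chosen after the Ccr4 window had been seen. A second RefSeq start of Ccr6, with its window at chr17:8242276-8242525, also had 1 GGAAA. Windows were found for 7 of the 8 receptors, and Ccr10 had none. GGAAA occurred in those of 5 receptors, Ccr2, Ccr4, Ccr6, Cxcr4 and Cxcr6, and TGANTCA in that of Ccr4 only. The first window of Ccr6 held the STAT motif TTCNNNGAA (7.02% of all windows) and the ROR motif AGGTCA (14%). The T-box motif TCACAC was present in the window of Cxcr3 (12.3%), whereas the E-box CACGTG (6.02%) was in none. These are matches of letters and not sites of binding.

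Most of these receptors had fewer transcripts in unstimulated Treg cells labelled DKO than in WT cells. Ccr2, Ccr4, Ccr6 and Ccr8 were called lower, by 4.45-fold to 11-fold in the group means, and no receptor was called higher. Log2 fold changes are given with the standard error (SE) of the fit. A call required both an adjusted p below 0.05 in limma and a difference above 1.5-fold. The 15419 tested genes included 3.35% with a lower and 1.38% with a higher call, and of the 7 receptors tested 4 were lower. Ccr10, with a mean of 6.95 normalized counts over the 8 libraries, was under the minimum mean of 10 and was not among them. The median log2 fold change of the 7 receptors was -2.22, against -0.0057 over all tested genes. Both DKO libraries lay below both WT libraries for 6 of the 7, where 27.1% of all genes did so. The study itself displays all 8 receptors as differentially expressed in these libraries, so this count is not independent evidence of a direction. Its display takes genes over 1.5-fold, and its text names Ccr4, Ccr6 and Cxcr3 of the 8 as impaired. Cxcr3, Cxcr4 and Cxcr6 were not called here. In bulk RNA, fewer receptor-bearing cells and less RNA per cell cannot be told apart.

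Ccr8, the receptor for CCL1 and a marker of effector Treg cells in tissues and tumours, had 605 and 504 normalized counts in the unstimulated WT libraries and 35.65 and 65.4 in DKO libraries. Both DKO libraries lay far below both WT libraries, and the means differed 11-fold. The log2 fold change was -3.49 ± 0.39 (SE) at a limma adjusted p = 0.00416.

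Ccr4 binds CCL17 and CCL22, which dendritic cells and skin cells release. Its values were 2579 and 1954 normalized counts in WT and 633 and 269.8 in DKO libraries. The groups did not overlap, and the means differed by 5.02-fold, with a log2 fold change of -2.44 ± 0.39 (SE) at a limma adjusted p = 0.0128.

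Ccr2, the receptor for CCL2 and related monocyte chemoattractants, is best known from inflammatory monocytes and is also carried by activated T cells. WT libraries had 2017 and 1909 normalized counts, and DKO libraries 543 and 211. The log2 fold change was -2.53 ± 0.44 (SE) at a limma adjusted p = 0.0167. Both DKO libraries lay below both WT libraries. The sum of the macrophage markers was also higher in DKO replicate 1 than in replicate 2, and its part in the Ccr2 values was not tested.

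Ccr6, the receptor for CCL20, is typical of Th17 cells and of Treg cells at mucosal sites. It had 963 and 805 normalized counts in WT and 262 and 135 in DKO libraries, without overlap, and a log2 fold change of -2.22 ± 0.32 (SE) at a limma adjusted p = 0.00880.

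Ccr10 binds CCL27 and CCL28 of epithelia and was the rarest of these transcripts. It had 27.0 and 17.7 normalized counts in WT libraries, from 25 and 12 reads, and no read in either DKO library. Taking the mean of the 3-read limits of the DKO libraries, Ccr10 was at least 6.25-fold lower there. In a fit of every gene with a value above 0, Ccr10 passed the same thresholds (limma adjusted p = 0.0370). The overlapping Cntnap1 had 20.5 and 23.6 normalized counts in WT and 58.7 and 28.1 in DKO libraries, which were not lower.

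Cxcr3 and Cxcr4 were lower in both DKO libraries than in either WT library but were not called. Cxcr3, the receptor for the interferon-induced CXCL9 and CXCL10, had 207 and 183 normalized counts in WT and 89.1 and 25.4 in DKO libraries, with a log2 fold change of -2.01 ± 0.79 (SE) at a limma adjusted p = 0.173. Cxcr4, the receptor for CXCL12, had 2288 and 1923 in WT against 440.4 and 1374 in DKO libraries. Its log2 fold change of -1.43 ± 0.44 (SE) at a limma adjusted p = 0.0915 rested on the DKO libraries unequally, being -2.25 without DKO replicate 2 and -0.61 without DKO replicate 1. DESeq2 on the recovered reads called Cxcr4 (adjusted p = 0.0366, within a range of 0.0366 to 0.154 over the fits of all libraries or of the 4 unstimulated ones).

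Cxcr6, the receptor for CXCL16, did not separate the genotypes. WT libraries had 151 and 189 normalized counts and DKO libraries 251 and 138, so that the groups overlapped. The log2 fold change was 0.14 ± 0.50 (SE) at a limma adjusted p = 0.908 and changed its sign with the library left out, from -0.30 without DKO replicate 1 to 0.57 without DKO replicate 2. Fyco1, which spans Cxcr6 on the other strand, had 783 and 773 normalized counts in WT and 2276 and 1038 in DKO libraries.

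**Figure D1:**
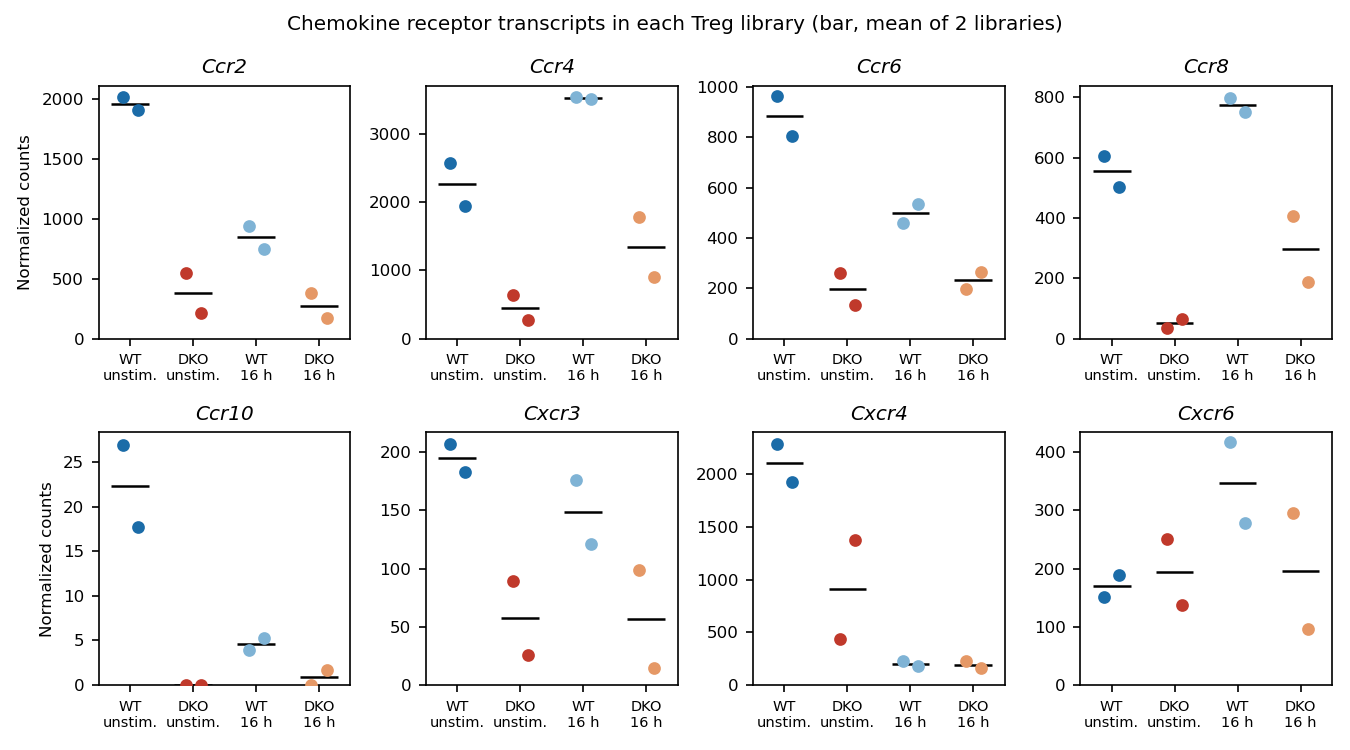
Normalized counts of the 8 receptors (vertical axes, linear, from 0) in each library, grouped by genotype and stimulation, with the mean of 2 libraries as a bar. For Ccr2, Ccr4, Ccr6, Ccr8, Ccr10, Cxcr3 and Cxcr4 both unstimulated DKO points lie below both unstimulated WT points, and for Cxcr6 they do not.

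The 4 calls depended on both WT libraries. Without WT replicate 3, 0 of the 4 were called (adjusted p from 0.124 to 0.213), and the count of all genes called lower fell from 517 to 8. Without WT replicate 4, Ccr8 alone was called and 16 genes were lower in all. The log2 fold changes themselves ranged from -3.92 to -3.06 for Ccr8, -3.05 to -1.82 for Ccr4, -3.21 to -1.85 for Ccr2 and -2.70 to -1.74 for Ccr6 with each library left out. Each of the 4 was also called by edgeR and by DESeq2 on recovered reads, which called 2.29% and 5.25% of all genes lower.

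After 16 h of stimulation, the fitted values of the 7 receptors were at or below those of WT libraries, close to 0 for Cxcr4 and between -1.91 and -1.01 for the others, and none passed the threshold (0 of 7 called by limma and 0 by edgeR, beside 0.11% of all genes called lower and 0.162% higher by limma). DESeq2 called 4 of them lower, Ccr2, Ccr4, Ccr6 and Ccr8, beside 1.86% of all genes. Limma called 5 lower without the stimulated DKO replicate 1 (Ccr2, Ccr4, Ccr8, Cxcr3 and Cxcr6), where the lower calls among all 15419 genes rose from 17 to 551. It called 3 (Ccr2, Ccr4 and Ccr6) without unstimulated DKO replicate 1 or replicate 2, with 174 and 173 lower calls among all genes. At an unadjusted p under 0.05 and more than 1.5-fold, 5 receptors were lower and 0 higher, where 6.95% of all genes were lower and 5.6% higher. The median log2 fold change of the 7 was -1.47, against 0.0163 over all tested genes. Both DKO libraries lay below both WT libraries for 5 of the 7, where 23.1% of all genes did so.

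Ccr4 had 3548 and 3524 normalized counts in stimulated WT libraries, which were nearly equal, and 1784 and 909 in DKO libraries, with a log2 fold change of -1.47 ± 0.39 (SE) at a limma adjusted p = 0.135. Ccr8 had 799 and 751 against 407 and 187, and a log2 fold change of -1.49 ± 0.39 (SE) at a limma adjusted p = 0.125. Ccr2 had 943 and 752 against 376 and 172, and a log2 fold change of -1.72 ± 0.44 (SE) at a limma adjusted p = 0.121. In all 3 the DKO replicate 2 was the lowest of the 4 libraries, and the groups did not overlap.

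Ccr6 had 459.8 and 536 normalized counts in stimulated WT and 197 and 265 in DKO libraries, and a log2 fold change of -1.12 ± 0.32 (SE) at a limma adjusted p = 0.153. Here DKO replicate 1 was the lowest library. Ccr10 was near the detection limit, with 3.90 and 5.32 normalized counts in WT (12 reads together) and 0 and 1.69 in DKO libraries (2 reads together). The ratio of WT to DKO was 5.64, with a 95% interval from 1.26 to 51.9 that is exact for the reads and covers counting error only.

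The values of Cxcr3 were 176 and 121 in stimulated WT against 98.5 and 14.35 normalized counts in DKO libraries, without overlap (log2 fold change -1.91, standard error 0.79, limma adjusted p = 0.314). Without DKO replicate 2, the log2 fold change of Cxcr3 was -0.57, and without DKO replicate 1 it was -3.26. The sum of the CD8 T and NK cell markers was also higher in stimulated DKO replicate 1, at 1097, than in replicate 2, at 396. Its part in the Cxcr3 and Cxcr6 values was not tested. Cxcr6 had 418 and 278 against 296 and 95.4 normalized counts, which overlap, with a log2 fold change of -1.01 ± 0.50 (SE) at a limma adjusted p = 0.406, or -0.20 without DKO replicate 2. Cxcr4 was close in value in all 4 stimulated libraries, with 224 and 183 in WT and 228 and 159.6 in DKO, a log2 fold change of -0.08 with a standard error of 0.44 (limma adjusted p = 0.961).

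**Figure D2:**
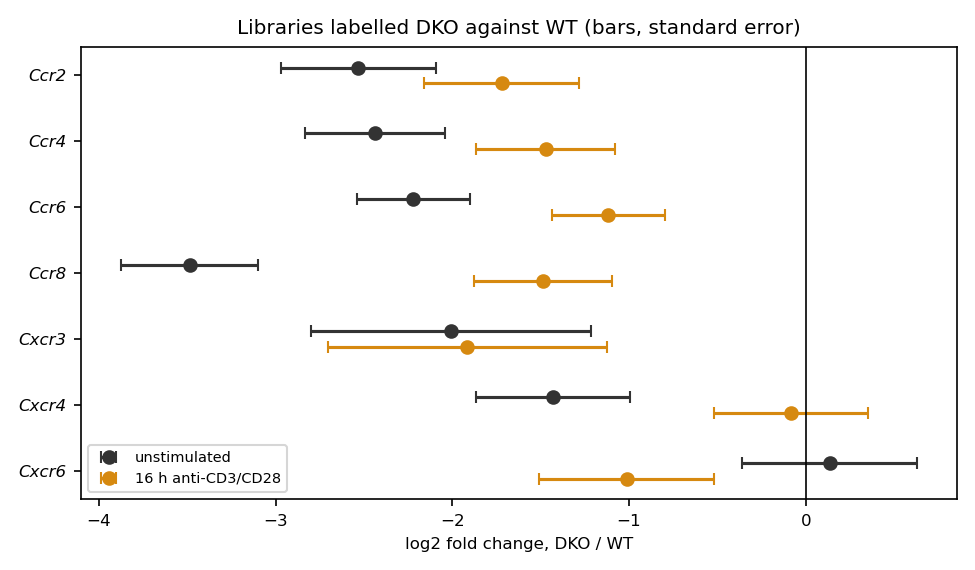
Log2 fold change of libraries labelled DKO over WT (horizontal axis) for the 7 receptors tested, with bars of 1 standard error, in unstimulated cells and after 16 h. Ccr8 shows the most negative unstimulated value, at -3.49, and lies at -1.49 after stimulation, while Cxcr6 in unstimulated and Cxcr4 in stimulated cells lie near 0.

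An interaction term asked if the genotype difference depended on stimulation. No receptor passed (0 of 7 with limma, edgeR and DESeq2, where DESeq2 called 0.221% of all genes with a positive and 0.0843% with a negative term and the others 0), and at an unadjusted p under 0.05 there were 2 with a positive term, Ccr6 and Ccr8, where 4.57% of all genes had one and 3.52% a negative one. The interaction of Ccr8 was 2.00 on the log2 scale (standard error 0.55, unadjusted p = 0.00444, limma adjusted p = 0.556), and that of Ccr6 was 1.10 ± 0.45 (SE) at a limma adjusted p = 0.580. Over the alternative limma, edgeR and DESeq2 fits of all libraries, the Ccr8 interaction was 1.87 to 2.08, with an adjusted p of 0.0524 to 0.648. Cxcr4 had an interaction of 1.34 ± 0.62 (SE) at a limma adjusted p = 0.614, which was 2.16 without the unstimulated DKO replicate 2 and then passed (adjusted p = 0.0314), in a fit in which 179 of all genes had a positive and 17 a negative call. A smaller genotype difference after stimulation was therefore not shown for any receptor over all libraries.

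Stimulation moved the receptors in different directions. Cxcr4 fell in both genotypes. In WT cells its mean went from 2106 to 203 normalized counts, a log2 fold change of -3.37 ± 0.44 (SE) at a limma adjusted p = 0.00126, and in DKO cells from 907 to 194 (log2 fold change -2.02, standard error 0.44, limma adjusted p = 0.00893, or 0.0521 without the stimulated DKO replicate 2). It was the only 1 of the 7 called in WT cells, where 13.1% of all genes were called lower and 10.2% higher.

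In DKO cells, 2 of the 7 were called higher after stimulation, Ccr8 and Ccr4, and 1 lower, beside 13% of all genes higher and 12% lower. Ccr8 rose 5.88-fold, from a mean of 50.5 to 297 normalized counts (log2 fold change 2.49, standard error 0.39, limma adjusted p = 0.00216). Ccr4 rose 2.98-fold, from 452 to 1347 (log2 fold change 1.62, standard error 0.39, limma adjusted p = 0.0149), and its adjusted p was 0.0715 without the unstimulated DKO replicate 2 and 0.0926 without the stimulated DKO replicate 1. In WT cells the log2 fold changes were 0.49 for Ccr8 (standard error 0.39, limma adjusted p = 0.391) and 0.65 for Ccr4 (standard error 0.39, limma adjusted p = 0.254), from starting levels that were already higher. Rescaling the libraries to equal totals, which moved the median of all genes by 0.52 on the log2 scale, gave 1.175 for Ccr4 in WT (adjusted p = 0.0456, and 0.00736 to 0.627 among all alternatives with the libraries left out included).

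The remaining receptors were not called for stimulation in either genotype. In WT cells, Ccr2 had a log2 fold change of -1.22 ± 0.44 (SE) at a limma adjusted p = 0.0695. Ccr6 had -0.83 ± 0.32 (SE) at a limma adjusted p = 0.0872, and Cxcr6 had 1.01 ± 0.50 (SE) at a limma adjusted p = 0.167. In DKO cells the same 3 had -0.41, 0.28 and -0.14. Cxcr3 had -0.41 in WT and -0.32 in DKO cells, with standard errors of 0.79. All of these comparisons share the lane difference.

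**Figure D3:**
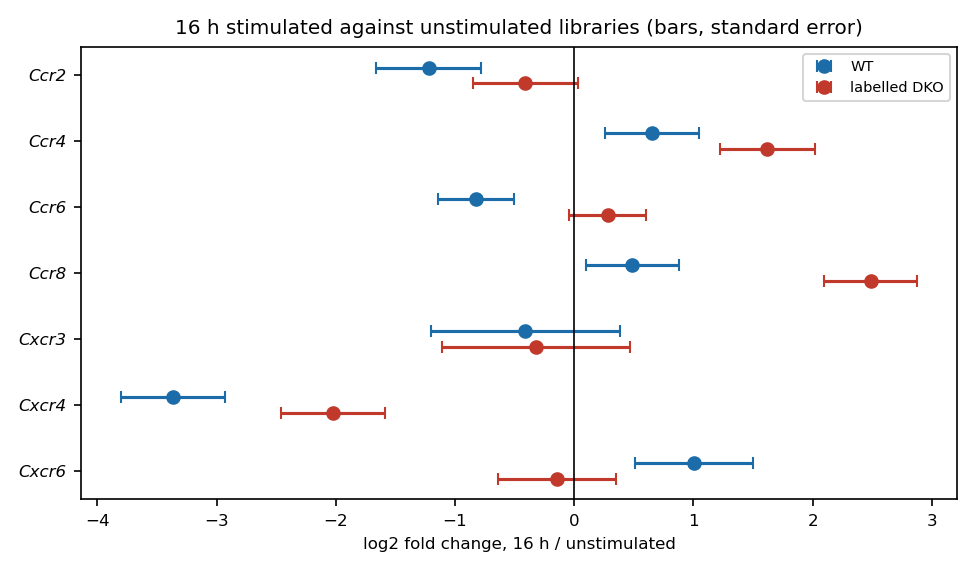
Log2 fold change of 16 h stimulated over unstimulated libraries (horizontal axis) for the 7 receptors tested, with bars of 1 standard error, in WT and in libraries labelled DKO. Cxcr4 is negative in both genotypes, at -3.37 and -2.02, and Ccr8 and Ccr4 are positive, with 2.49 and 1.62 in DKO libraries.

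Levels of different receptors can be compared only per length. Per kilobase of exon, unstimulated WT cells had the most Cxcr4, with a mean of 1165 normalized counts, followed by Ccr4 with 784, Ccr8 with 480, Ccr6 with 468, Ccr2 with 307, Cxcr3 with 113, Cxcr6 with 89.8 and Ccr10 with 12.95. Only Ccr8 and Ccr6 overlapped between neighbours in this order. In unstimulated DKO cells, Cxcr4 was again first, with 502, and Ccr4 followed with 156, while Ccr8 came after Ccr6, Cxcr6 and Ccr2, with 43.7. Each neighbouring pair from Ccr4 to Cxcr3 overlapped there, so that the order of neighbours is not resolved. Ccr4, Ccr6 and Cxcr6 each lay above Ccr8 and Cxcr3 without overlap, and Ccr4 also above Ccr2. In stimulated WT cells, Ccr4 led with 1223 and Ccr8 followed with 670, and Cxcr4, at 112, had dropped behind Ccr6. Neighbours from Cxcr6 through Ccr2 and Cxcr4 to Cxcr3 overlapped there, so that the order of these neighbours is not resolved. Cxcr6 lay above Cxcr4 and Cxcr3 without overlap, and so did Ccr2 above Cxcr3. Ccr10 was last. In stimulated DKO cells the 3 highest means were again those of Ccr4 with 466, Ccr8 with 257 and Ccr6 with 122 per kilobase. Ccr4 and Ccr8 overlapped there, and Ccr6 overlapped Cxcr4 and Cxcr6, so that its place is not resolved. The lengths are those of all exons in an annotation of an earlier mouse assembly (NCBIM37), and a long annotated form, as for Ccr2 with 6393 bases, lowers a value per kilobase.

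**Figure D4:**
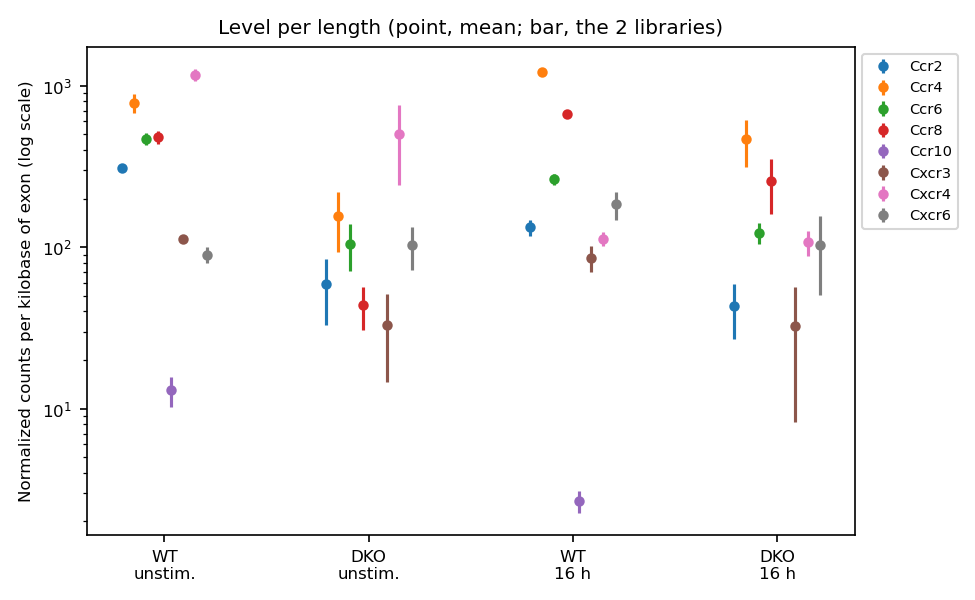
Normalized counts per kilobase of exon (vertical axis, log scale) of the 8 receptors in the 4 groups, with points at the mean and bars from one library to the other. A group with a library at 0, as for Ccr10 in both DKO groups, is not drawn. Ccr4 and Ccr8 lie above all others in stimulated WT cells, and Cxcr4 lies above all others in both unstimulated groups.

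Libraries of the same group differed more in DKO than in WT. The higher of 2 WT libraries exceeded the lower by at most 1.52-fold for any of the 8 receptors, whereas the ratio was 1.82 to 3.51 in unstimulated and 1.35 to 6.86 in stimulated DKO libraries for receptors detected in both. In unstimulated DKO cells replicate 1 was higher for 5 receptors, and replicate 2 for Ccr8 and Cxcr4. The profile over the 8 libraries was compared with that of 9140 other genes with a mean of at least 100, as the root mean square difference of log2 values centred on each gene's mean. The nearest genes to Ccr4 were Kntc1, Cdca8 and Tyms, which act in chromosome segregation and nucleotide synthesis, at differences of 0.11 to 0.15. Those to Ccr2 were Gcnt1, an enzyme of core-2 O-glycans, Cenpe, a kinetochore motor, and Plcb4 (0.22 to 0.26). The nearest to Ccr8 were AC117245.3, the costimulatory receptor Tnfrsf9 (4-1BB) and Icos, at 0.42 to 0.46, so that no gene followed Ccr8 as closely as Kntc1 followed Ccr4. Ccr6 was nearest to Pnkd, Prr13 and Neu3, Cxcr3 to Shtn1, Hmmr and Cenpe, Cxcr4 to Cwc25, Spty2d1 and Ifrd1, and Cxcr6 to C2cd2, B4galt5 and Uprt (0.22 to 0.34 together). Among the receptors themselves, Ccr2 and Cxcr3 were the closest pair (0.51) and Ccr8 and Cxcr4 the most distant (2.28). These differences describe 8 libraries that share genotype and stimulation groups.

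Other receptors of the family did not all follow. Of 14 further genes for chemokine receptors, 10 were tested. In unstimulated DKO libraries, 1 was called lower and 0 higher, beside 3.35% and 1.38% of all genes. Of the 10, 5 had negative and 5 positive values. The called gene was Ccrl2, an atypical receptor that binds chemerin and does not signal through G proteins, with 676 and 610.1 normalized counts in WT and 118 and 93.5 in DKO libraries (log2 fold change -2.60, standard error 0.42, limma adjusted p = 0.0134). Ccr7, which holds naive and central memory T cells in lymph nodes, was the most abundant, with 7052 and 5940 in WT and 1405 and 6749 in DKO libraries, which overlap (limma adjusted p = 0.271). Cxcr5, which guides cells into B cell follicles, had 228 and 245 against 162 and 93.5 (limma adjusted p = 0.290). Ccr9, a gut-homing receptor, ran the other way, with 188 and 285 normalized counts against 696 and 385 (log2 fold change 1.16, limma adjusted p = 0.0967). After stimulation 0 of the 10 were called by limma, beside 0.11% of all genes lower and 0.162% higher.

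Of 16 ligand genes of the 8 receptors, 9 were tested. The CXCR3 ligands Cxcl10 and Cxcl11 were called lower in unstimulated DKO libraries and 0 ligands higher, beside 3.35% and 1.38% of all genes. Cxcl10 had 1581 and 1557 normalized counts in WT and 186 and 228 in DKO libraries (log2 fold change -2.92, limma adjusted p = 0.00409). Cxcl11 had 39.9 and 31.0 against 1.05 and 0, the DKO values being 1 read in all (limma adjusted p = 0.0290). Cxcl9, another CXCR3 ligand, ran the other way without a call. It had 6.47 and 1.48 against 88.1 and 17.4 (log2 fold change 3.23, limma adjusted p = 0.157). In stimulated libraries Cxcl9 had 12.5 and 2.28 in WT against 161 and 14.35 in DKO (log2 fold change 2.91, limma adjusted p = 0.325). After stimulation, Cxcl10 had 316 and 204 in WT and 567 and 306 in DKO libraries, which overlap. Ccl1, the ligand of CCR8, and Ccl20, that of CCR6, were at most 7.39 normalized counts in any unstimulated library. After stimulation, Ccl1 had 169 and 80.5 in WT against 225 and 65.8 in DKO libraries, and Ccl20 had 213 and 141 against 132 and 33.8, and neither was called for genotype.

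**Figure D5:**
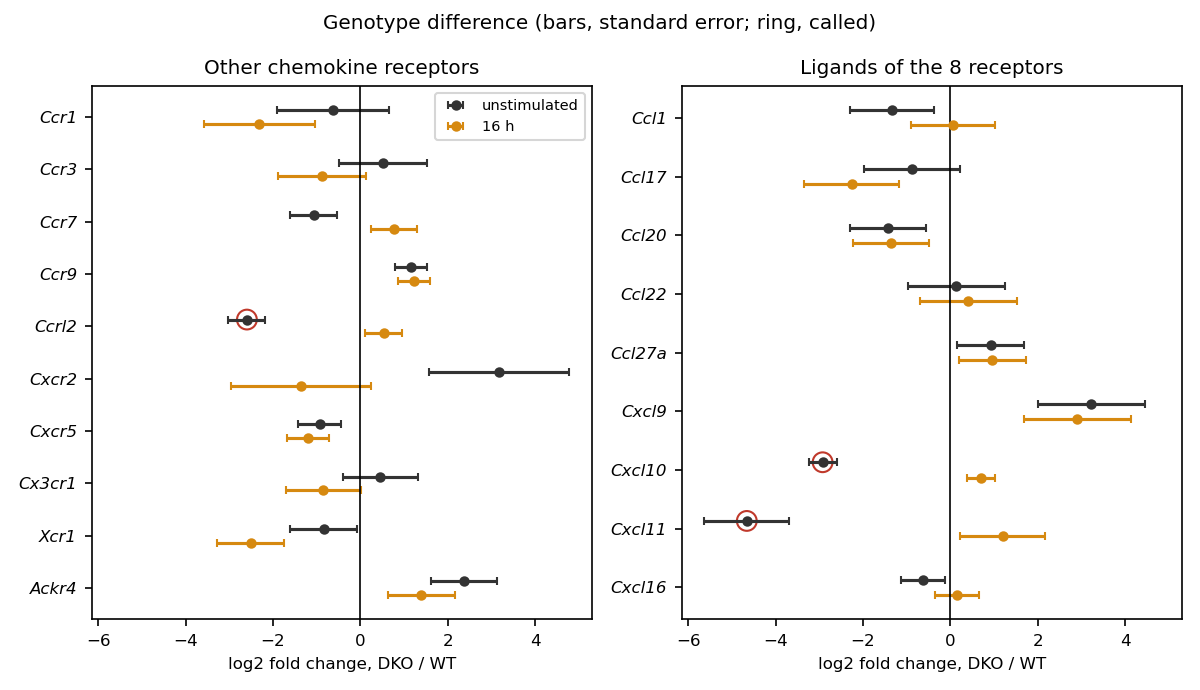
Log2 fold change of libraries labelled DKO over WT (horizontal axes) for the 10 other chemokine receptors and the 9 ligands of the 8 receptors that were tested, with bars of 1 standard error, unstimulated and after 16 h. Rings mark called genes, which are Ccrl2 at -2.60, Cxcl10 at -2.92 and Cxcl11, all in unstimulated cells.

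Genes that act behind the receptors were called at a share near that of all genes. Of 40 tested genes for G proteins, receptor kinases, arrestins, RGS proteins and the Rac and Rap pathways, 2 were called lower and 1 higher in unstimulated DKO libraries, beside 3.35% and 1.38% of all genes, with a median log2 fold change of -0.03. Tiam1, a Rac exchange factor, had 4605 and 4832 normalized counts in WT and 1131 and 1310 in DKO libraries (log2 fold change -1.95, limma adjusted p = 0.00208). Rgs2, which shortens G protein signals, had 18397 and 13945 in WT and 3791 and 9114 in DKO libraries (log2 fold change -1.45, limma adjusted p = 0.0449), and Pik3r5, a regulatory subunit of the G protein-driven PI3 kinase, was higher (log2 fold change 1.28, limma adjusted p = 0.0252). The abundant Gnai2 had 3153 and 2598 in WT and 2323 and 2479 in DKO libraries (limma adjusted p = 0.472). After stimulation 0 of the 40 were called.

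Among 18 transcription factors with known ties to these receptors, 6 were called lower and 1 higher in unstimulated DKO libraries. Over all tested genes these shares were 3.35% and 1.38%. The median log2 fold change of the 18 was -0.75, against -0.0057 over all tested genes. Prdm1 (Blimp-1) had a mean of 1844 ± 293 normalized counts in WT and 289 ± 131 in DKO libraries (SD, n = 2), with a log2 fold change of -2.74 in limma (adjusted p = 0.00538). Batf, Irf4, Ahr and Nfatc1 had log2 fold changes of -2.07, -1.90, -1.69 and -0.80 (limma adjusted p = 0.00593, 0.00880, 0.00593 and 0.0480). Rora, at -2.33 (limma adjusted p = 0.0302), had 24477 and 25307 normalized counts in WT against 2412 and 10125 in DKO libraries. Bach2, a factor of resting T cells, was called higher (log2 fold change 0.83, limma adjusted p = 0.0454). Tbx21 (T-bet), a driver of Cxcr3, was not called (-1.36 on the log2 scale, limma adjusted p = 0.238). After stimulation, Batf alone was called lower (log2 fold change -1.76, limma adjusted p = 0.0392), beside 0.11% of all genes. Several of these factors are named by the study for their change in these libraries, so their counts are not independent evidence.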

How the data were processed

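The series holds 8 RNA libraries of sorted Treg cells, with 2 in each of 4 groups. The deposited signal values are gene counts that the authors divided by a size factor and rounded to 2 decimals. The methods name Bowtie 1.0.0, NCBIM37, unique reads, Picard, HTSeq and DESeq2, whereas the submitters' processing notes list bcl2fastq 1.8.4, STAR 2.7, DESeq2 and mm10. Labels and methods also name different library kits, a stranded one and TruSeq v2, so strand use is not settled. Whole reads were recovered by division, since 100% of values lay within 0.006 of a multiple of 1 read.

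After adding a pseudocount of 1, log2 values entered limma 3.58.1 (R 4.3.3) for the 15419 genes with a mean of at least 10, in 1 model of 4 groups with a shared spread. Tests were 2-sided, with Benjamini-Hochberg adjustment over all genes. The labels do not tie the libraries to separate mice, so p-values measure the spread between pools. The methods use DESeq2, which was run on recovered reads as an alternative (1.42.0), as was edgeR 4.0.16. Further alternatives were pseudocounts of 0.1 and 5, no filter, a mean of at least 100, rescaled libraries, the 4 libraries of a contrast, a replicate block, a 2-fold threshold and each library left out. On simulated data with 200 genes changed 4-fold in unstimulated DKO libraries, limma called 200 of them among 225 calls, over 15419 genes. The simulation gave every library the same spread, whereas the real DKO libraries of a group differed more than the WT libraries. It therefore does not show how many such changes would be missed in these libraries.

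Receptors, lists and alternatives were chosen with earlier results of these data known. Outside the receptors, genes were named if called for genotype (at most 6 a list, by size) or abundant, or if closest in profile. Some uncalled receptors, ligands and factors with a known tie to a receptor were named after their values were seen. Positions and promoters are from RefSeq GRCm38.p6 and lengths from GENCODE vM1. Some genes of the lists are not reported here.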

Additional observations from a re-analysis of the deposited data

How the results depend on the processing

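In unstimulated cells, the number of receptors called lower in DKO libraries was 4 in the fit of all libraries, beside 517 of all genes. It did not hold when either WT library was left out. After stimulation that number, 0 in the fit of all libraries, was 4 with DESeq2 on recovered reads and 4 with a replicate block, and 0 to 5 with each library left out (5 without the stimulated DKO replicate 1). The lower calls among all genes were 17 in the fit of all libraries, 202 with the block and 551 without that replicate. The replicate block could be fitted for the stimulated genotypes and for stimulation in DKO cells, where it gave the same calls as the fit without it. Deviations of libraries with the same number correlated over genes at 0.167 and 0.257, but the numbers are not stated to mark a shared pool, and the unstimulated genotypes share none. The interaction gave 0 to 1 receptor with a positive term with each library left out. For stimulation in WT cells, the fit of all libraries called 1 receptor lower and 0 higher, beside 2013 and 1580 of all genes. The lower calls rose to 3 with upper quartiles, with DESeq2 and on the 4 libraries alone. Beside them, 2386, 2256 and 2746 of all genes were lower. The higher calls rose to 2 with equal totals and on the 4 libraries alone, beside 4267 and 2319 of all genes. Leaving out single libraries changed the lower count too. For stimulation in DKO cells, the higher calls fell from 2 to 1 on the 4 libraries alone, where those of all genes fell from 1997 to 880. Leaving out single libraries changed both the higher and the lower count there.

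The direction turned only for values that were not called. With equal totals, Cxcr3 turned to -0.049 for the interaction and to 0.11 in WT and 0.057 in DKO cells for stimulation, and Cxcr6 to 0.25 for stimulation in DKO cells. Leaving out single libraries, the log2 fold change for genotype ranged from -0.30 to 0.57 for Cxcr6 in unstimulated cells and from -0.34 to 0.17 for Cxcr4 in stimulated cells. The interaction of Cxcr3 ranged from -1.26 to 1.44. For stimulation in DKO cells, the ranges were -1.09 to 0.27 for Ccr2, -0.20 to 0.76 for Ccr6, -1.67 to 1.03 for Cxcr3 and -0.95 to 0.67 for Cxcr6. The causes were not tested. Scaling to equal totals moved the median of all genes by 0.119 for genotype in unstimulated cells, and no genotype call of a receptor changed with it. With equal totals, 348 genes were lower and 239 higher there, against 517 and 213.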
